A study of Mus musculus with 8 samples.

Results

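Homeostatic microglia markers are genes that microglia express at rest and by which they are told from other macrophages. The 9 genes described here are P2ry12, P2ry13, Tmem119, Siglech, Sall1, Gpr34, Olfml3, Fcrls and Selplg, and they were taken with all of their probes from the mRNA probes of a mouse array. They were 9 of 18198 mRNA genes tested and 18 of 47074 mRNA probes on the array. All 18 probes were well above background on all 8 arrays, so no member was lost to the filter on dim probes, and 8 of the 9 genes had at least 2 probes. Spinal cord of female mice aged 8 weeks was compared between 4 mice with a contusion injury of the cord and 4 control mice. One sample was taken per mouse from segments T9 to T10, and no strain, transgene or drug is given in the labels. The titles put the contusion samples at 3 days after injury, whereas the descriptions give 3, 4, 5 and 6 days for contusion replicates 1 to 4. The controls are called sham in the design text and normal in the descriptions.

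Microglia are the resident macrophages of the brain and spinal cord. Their resting programme is kept up by TGF-beta signals through SMAD proteins and by transcription factors that include PU.1 and SALL1, and the receptors in it sense nucleotides, lipids and sialic acids around the cell. After injury the cord also holds monocyte-derived macrophages, which share many genes with microglia, and in such tissue microglia are known to lower several of these markers as they become activated.

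The RNA was total RNA from whole tissue, labelled with Cy3 and hybridised to arrays with probes of 60 bases for mRNAs, lncRNAs and circRNAs. A level below is log2 of the processed intensity of a probe minus log2 of the 75th percentile of its own array, so a level of 0 is that percentile. Levels of different probes are not compared with each other, because probes differ in brightness at equal RNA. Each array carried 150305 probes that were not controls, of which 72.9% to 75.4% were well above background, no spot was saturated, and arrays of one group correlated at 0.986 to 0.989. In whole tissue, fewer cells of a type and less RNA per cell cannot be told apart, nor can more cells and more RNA per cell.

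The first 30 of the 60 bases of the probe that stood for each gene are shown here because every value below rests on what these probes bind. They are written 5′ to 3′ in lower case with no base marked, in the order receptors and surface proteins, secreted protein, transcription factor.
P2ry12: gctttgaaaatgcctgctgcttgaatgaac
P2ry13: cctcatctgtgtgacatcattcctcatcta
Gpr34: gactgagttgaaatgtcagtgaacatgagt
Tmem119: cctcagctcttcggatgtggatatatgaca
Siglech: gcccactttaagtgtttggttgcatttaaa
Fcrls: gaagctctgcctgtgctcattcaggtagcc
Selplg: catggtaacccggtaagagaggagcttttg
Olfml3: tggggctttccccacatcactttgtatggt
Sall1: cctcttgatcaagagcaggtatagtgttgg
The array design places the probe of Siglech at mm9 chr7:63033169-63033228 on the plus strand and the probe of Fcrls at mm9 chr3:87056422-87056481 on the minus strand. Of the 18 member probes, 11 had such a position in the files. Whether a probe lies in a coding exon or an untranslated region was not analysed here.

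Of the 9 genes, 6 were higher after contusion, 0 were lower and 3 did not pass the test. The test was limma, with Benjamini-Hochberg adjustment over all 89140 mRNA, lncRNA and circRNA features and a threshold of 0.05. Without adjustment, at p under 0.05 in limma, 7 were higher and 0 lower, the seventh being Sall1. Among all mRNAs, 51.1% passed in either direction, 25.8% as higher and 25.3% as lower. The genes that rose were Fcrls, Olfml3, Gpr34, Tmem119, P2ry13 and Selplg, by 4.30-fold to 1.48-fold, while P2ry12, Sall1 and Siglech did not pass. The median difference of the 9 genes was 0.87 log2 units, against -0.0014 over all mRNAs tested. In 6 of the 9 genes the contusion samples all lay above the controls, as they did for 26.6% of all mRNAs, and in 0 all lay below, against 25.1%. At the level of probes, 13 of the 18 passed, all as higher, against 26.5% of mRNA probes called higher.

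**Figure D1:**
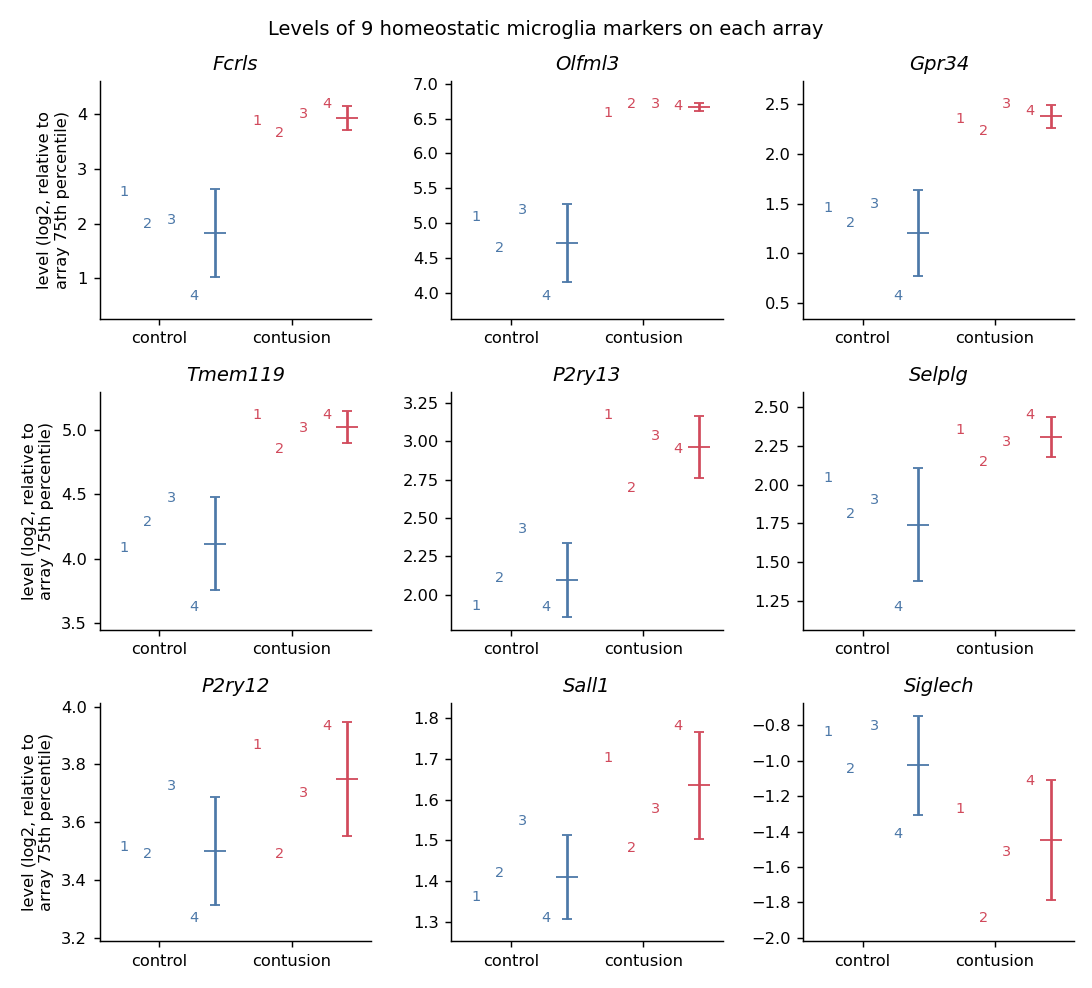
Level of each of the 9 markers on each array, as log2 intensity relative to the 75th percentile of the array, with 1 panel per gene. The 4 control and 4 contusion samples are shown by their replicate numbers, and the group mean as a line with the SD as error bar. The groups are apart in 6 panels and overlap for P2ry12, Siglech and Sall1, and control replicate 4 is the lowest control in all 9.

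P2ry12 and P2ry13 are G protein-coupled receptors for ADP, and P2ry12 draws microglial processes towards nucleotides released at damaged sites. The level of P2ry12 was 3.51, 3.49, 3.73 and 3.27 in control replicates 1 to 4 and 3.87, 3.49, 3.70 and 3.93 in contusion replicates 1 to 4. The groups overlapped, with 2 of the 4 contusion samples above every control. The difference was 0.25 ± 0.13 log2 units (SE, n = 4 per group; limma, adjusted p = 0.161), with a 95% interval of -0.04 to 0.54. The second probe of P2ry12 gave 0.24.

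The level of P2ry13 was 1.93, 2.11, 2.43 and 1.92 in the controls and 3.17, 2.70, 3.03 and 2.95 after contusion. Every contusion sample was above every control. The difference was 0.87 ± 0.14, or 1.82-fold (limma, adjusted p = 0.00192), and the second probe gave 0.94. Levels of P2ry12 and P2ry13 moved by different amounts on the same arrays: P2ry12 minus P2ry13 fell by 0.62 from control to contusion (two-sided exact permutation test, p = 0.0286, adjusted p = 0.0367 over 36 pairs).

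Gpr34 is a lysophosphatidylserine receptor on microglia. Its level was 1.46, 1.30, 1.495 and 0.58 in the controls and 2.35, 2.22, 2.50 and 2.43 after contusion. Control replicate 4 was well below the other controls, and the groups did not overlap. The difference was 1.17 ± 0.20, or 2.25-fold (limma, adjusted p = 0.00216), and the second probe gave 1.13. Without control replicate 4 the difference was 0.96.

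Tmem119 is a membrane protein used to tell microglia from other macrophages in tissue. Its level was 4.09, 4.29, 4.47 and 3.63 in the controls and 5.11, 4.85, 5.02 and 5.12 after contusion. The 4 contusion samples lay close together and above every control. The difference was 0.91 ± 0.17, or 1.88-fold (limma, adjusted p = 0.00375), with 0.99 at the second probe.

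Siglech is a lectin of the sialic acid-binding family, found on microglia and on plasmacytoid dendritic cells. Its level was -0.84, -1.05, -0.81 and -1.42 in the controls and -1.27, -1.89, -1.52 and -1.11 after contusion. It was the only one of the 9 genes with a lower mean after contusion than in the controls, and the groups overlapped. The difference was -0.42 ± 0.19 (limma, adjusted p = 0.126), with a 95% interval of -0.87 to 0.03, and it rested on 1 probe. Without contusion replicate 2 the difference was -0.27.

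Fcrls is an Fc receptor-like protein of the mouse with high expression in microglia. Its level was 2.59, 1.99, 2.06 and 0.68 in the controls and 3.88, 3.66, 4.01 and 4.19 after contusion. The controls were spread over a wider range than the contusion samples, and the groups did not overlap. The difference was 2.10 ± 0.36, or 4.30-fold (limma, adjusted p = 0.00240). Its 3 probes gave 2.10, 2.21 and 2.53, the widest range between probes of one member. Without control replicate 4 the difference was 1.72.

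Selplg encodes the ligand of P-selectin, which leukocytes of the blood carry as well. Its level was 2.04, 1.81, 1.90 and 1.21 in the controls and 2.36, 2.14, 2.27 and 2.45 after contusion. The groups did not overlap, but the lowest contusion sample was close to the highest control. The difference was 0.56 ± 0.17, or 1.48-fold (limma, adjusted p = 0.0330), and the second probe gave 0.60. This call was lost without control replicate 2 (adjusted p = 0.0599) and without contusion replicate 1 (0.0689), 3 (0.0655) or 4 (0.0832), and with the slide as a block (0.113).

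Olfml3 encodes a secreted matrix protein of the olfactomedin family. Its level was 5.09, 4.64, 5.19 and 3.97 in the controls and 6.58, 6.70, 6.71 and 6.69 after contusion. The contusion samples lay within a narrow band far above the controls. The difference was 1.95 ± 0.245, or 3.85-fold (limma, adjusted p = 0.000571), and 1.85 at the second probe.

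Sall1 is a zinc finger transcription factor that maintains microglial identity. Its level was 1.36, 1.42, 1.55 and 1.31 in the controls and 1.70, 1.48, 1.58 and 1.78 after contusion. The groups overlapped, since contusion replicate 2 lay below control replicate 3, and 3 of the 4 contusion samples were above every control. The difference was 0.22 ± 0.09 (limma, adjusted p = 0.0763), with 0.13 at the second probe. Without contusion replicate 2 it was 0.28 and passed the test (adjusted p = 0.0458).

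**Figure D2:**
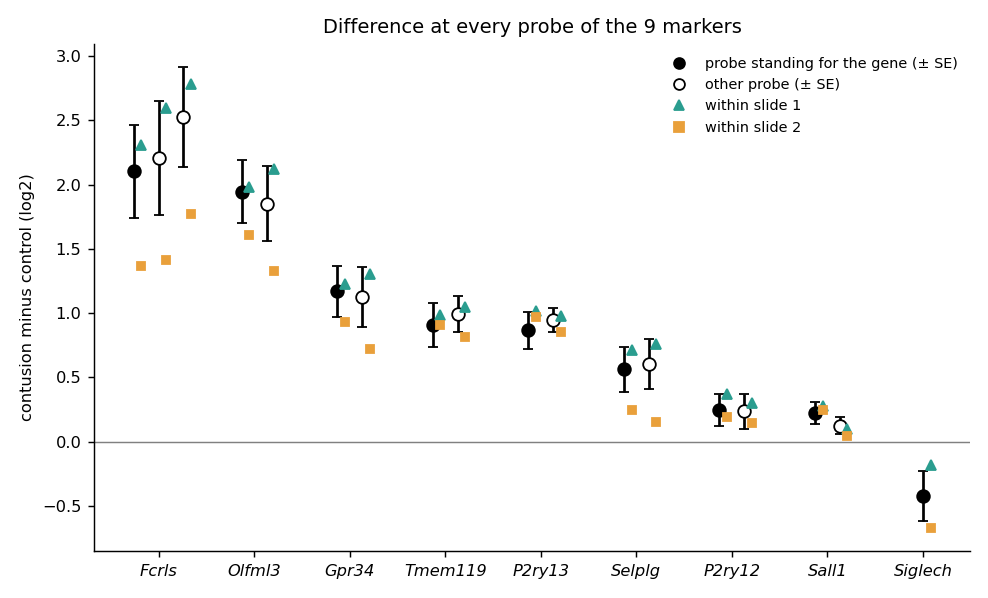
Contusion minus control difference, in log2 units, at each of the 18 probes of the 9 markers, as circles with the SE from limma, filled for the probe that stands for its gene, and with the values within each slide as triangles and squares. Probes of one gene lie together, with the widest range for Fcrls (2.10 to 2.53), and the Siglech probe alone lies below 0.

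The samples shared an order across these genes. Control replicate 4 was the lowest control in 9 of 9 members, a position it held for 19.7% of all mRNAs. Contusion replicate 2 was the lowest contusion sample in 8 of 9 members, the exception being Olfml3, and it was lowest for 28.1% of all mRNAs. The mean level of the 9 genes was 2.36, 2.22, 2.45 and 1.68 in control replicates 1 to 4 and 3.08, 2.82, 3.03 and 3.16 in contusion replicates 1 to 4. Without control replicate 4 all 6 calls held, and the differences of P2ry13, Tmem119 and Olfml3 were 0.81, 0.74 and 1.69.

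The arrays lay on 2 slides, one with control replicates 2, 3 and 4 and contusion replicate 1, the other with control replicate 1 and contusion replicates 2, 3 and 4. By the descriptions, the contusion sample of day 3 was on the first slide and those of days 4, 5 and 6 on the second. Day 3 against the later days thus cannot be told apart from the slide. All 9 genes had the same sign of difference within both slides. Within the first and the second slide P2ry12 differed by 0.37 and 0.19, P2ry13 by 1.02 and 0.97, and Tmem119 by 0.99 and 0.91. The same values were 1.23 and 0.93 for Gpr34, 1.98 and 1.61 for Olfml3, and 2.30 and 1.36 for Fcrls. The 2 slides lay furthest apart, in relative terms, for Selplg at 0.71 and 0.25 and Siglech at -0.18 and -0.67, while Sall1 gave 0.28 and 0.25.

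Whether the members moved by different amounts was tested on the 36 pairs, as the difference between 2 members on each array. Of these, 28 pairs changed between control and contusion (two-sided exact permutation tests, adjusted p = 0.0367 each). The exact permutation test cannot go below p = 0.0286 here, as 4 against 4 samples allow 70 splits. Siglech differed from every other member, its difference lying 0.64 below that of Sall1 and 2.52 below that of Fcrls. P2ry12 lay 1.85 below Fcrls, 1.70 below Olfml3, 0.92 below Gpr34 and 0.66 below Tmem119. Tmem119 lay 0.68 above Sall1, and Olfml3 1.38 above Selplg.

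The other 8 pairs missed the threshold. P2ry12 and Sall1 differed by 0.02 (adjusted p = 0.764 in the exact permutation test), P2ry13 and Tmem119 by -0.04 (0.857) and Olfml3 and Fcrls by -0.16 (0.514). P2ry13 and Gpr34 differed by -0.30, Tmem119 and Gpr34 by -0.26, and P2ry13 and Selplg by 0.30. P2ry12 lay 0.31 and Sall1 0.34 below Selplg. These values do not show that the members of a pair moved alike. Of the 36 differences, 31 had the sign of the pooled value within both slides, and the 5 that did not were all among these 8 pairs. With 1 sample left out no split can give p below 0.0571, so only values were computed. P2ry13 minus Gpr34 was -0.15, Sall1 minus Selplg -0.20 and Olfml3 minus Fcrls -0.03 without control replicate 4, and P2ry13 minus Selplg was 0.15 without control replicate 1. With each sample left out in turn, P2ry12 minus Sall1 ran from -0.02 to 0.06, P2ry13 minus Tmem119 from -0.09 to 0.06 and Olfml3 minus Fcrls from -0.29 to -0.03.

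Aif1 and Csf1r, which microglia and other macrophages both express, served as reference genes on each array. Both rose by less than 1.76, the median of the 12 genes in the list shared by microglia and macrophages. A reference that rose more would place every member lower, so the values below hold for these 2 genes only. Aif1, a calcium-binding actin-bundling protein, rose by 1.37 ± 0.31 or 2.59-fold (limma, adjusted p = 0.00823). Csf1r, the receptor that microglia need to survive, rose by 0.89 ± 0.21 or 1.86-fold (limma, adjusted p = 0.0104). Set against Aif1 on the same array, 6 members lay lower after contusion than in the controls and 2 lay higher, and these 8 of 9 passed the exact permutation test (adjusted p = 0.0343 each, over 18 comparisons). The lower ones were Siglech by -1.79, Sall1 by -1.15, P2ry12 by -1.12, Selplg by -0.81, P2ry13 by -0.51 and Tmem119 by -0.46. Olfml3 lay 0.57 and Fcrls 0.73 higher relative to Aif1, and Gpr34 lay at -0.20 and missed the threshold (adjusted p = 0.289). With normexp background correction Gpr34 lay at -0.37 and passed (exact permutation test, adjusted p = 0.0321), and in the authors' deposited values Fcrls lay at 0.71 and did not (0.0686).

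On individual arrays P2ry12 minus Aif1 ran from -0.23 to 0.87 in the controls and from -1.16 to -0.89 after contusion. The highest control value was that of control replicate 4. Without this sample P2ry12 minus Aif1 still changed by -0.88, Siglech by -1.60 and Sall1 by -0.86, while P2ry13 changed by -0.25 and Tmem119 by -0.31, in place of -0.51 and -0.46.

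Against Csf1r, 7 of 9 members passed (exact permutation test, adjusted p = 0.0343 each). Siglech lay -1.31, Sall1 -0.67, P2ry12 -0.64 and Selplg -0.33 relative to Csf1r, while Gpr34 lay 0.28, Olfml3 1.05 and Fcrls 1.21 higher. P2ry13 and Tmem119 moved by -0.03 and 0.02 relative to Csf1r and missed the threshold (adjusted p = 0.886 for both). With each sample left out in turn these values ran from -0.14 to 0.13 and from -0.05 to 0.07. Of the 18 comparisons, 16 kept their sign on each slide alone, the exceptions being P2ry13 and Tmem119 against Csf1r. P2ry12, Sall1, Siglech and Selplg were thus lower, and Olfml3 and Fcrls higher, relative to both reference genes. For Fcrls minus Aif1 the groups were barely apart, with a highest control of -0.99 and a lowest contusion sample of -0.97. Its change was 0.74 within the first slide and 0.25 within the second.

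**Figure D3:**
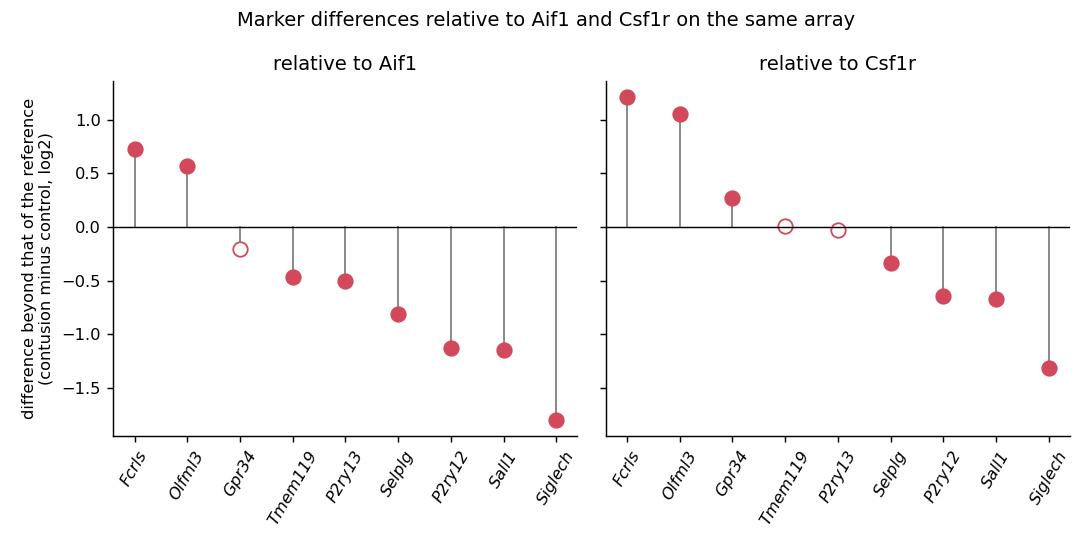
Contusion minus control difference of each marker relative to Aif1 and to Csf1r on the same array, in log2 units, filled where the exact permutation test passed after adjustment and open where it did not. Siglech lies lowest (-1.79 and -1.31) and Fcrls highest (0.73 and 1.21) against both reference genes.

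P2ry12 and P2ry13 are neighbours. In GRCm38.p6, P2ry13 lies at chr3:59207892-59210882 and P2ry12 at chr3:59216271-59262985, both on the minus strand and 5388 bases apart. Both lie inside the span of Med12l, a mediator subunit gene on the plus strand at chr3:59005419-59318446, together with P2ry14 and Gpr171. Tmem119 at chr5:113793729-113800396 and Selplg at chr5:113817798-113832528 are 17401 bases apart. Gpr34 at chrX:13622650-13640859 lies inside the span of Cask. Olfml3 (chr3:103735394-103738001) and Fcrls (chr3:87250736-87263765) are on chromosome 3 as well, Siglech is at chr7:55768154-55779448 and Sall1 at chr8:89027242-89044162.

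The 250 bases before the start of P2ry13 and of P2ry12 are shown as a description of these neighbours. They are from RefSeq on GRCm38.p6, both on the minus strand, at chr3:59210883-59211132 and chr3:59262986-59263235. Capitals mark GAGGAA, a sequence that can be bound by PU.1, a factor that microglia and other macrophages need.
P2ry13: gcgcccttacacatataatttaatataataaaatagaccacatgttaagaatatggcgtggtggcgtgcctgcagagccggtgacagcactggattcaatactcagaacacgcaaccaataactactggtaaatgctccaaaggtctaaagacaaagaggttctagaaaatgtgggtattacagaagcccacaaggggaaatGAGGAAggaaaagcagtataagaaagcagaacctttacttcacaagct
P2ry12: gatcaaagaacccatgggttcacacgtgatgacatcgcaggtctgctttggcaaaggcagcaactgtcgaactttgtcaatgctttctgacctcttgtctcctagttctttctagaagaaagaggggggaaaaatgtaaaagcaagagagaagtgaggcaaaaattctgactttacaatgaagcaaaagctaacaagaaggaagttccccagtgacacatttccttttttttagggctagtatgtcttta
GAGGAA was found 48 bases before the start of P2ry13, and not in the window of P2ry12. A table entry was found for 6 of the 9 genes, and Tmem119, Selplg and Gpr34 had none. On both strands GAGGAA was in 2 of the 6 (Fcrls and P2ry13), as in 23.3% of 32851 promoter windows. CAGACA, the SMAD motif, was in 2 (Fcrls and Siglech), as in 17.1% of windows, and TGTGGT, the RUNX motif, was in 3 (Fcrls, P2ry13 and Siglech), as in 14%. TGANTCA of AP-1 (6.75% of windows) and the motif of IRF factors, GAAA, any 2 bases and GAAA again (2.98%), were in 0 of the 6. These are matches of letters in a short window. Other forms of these sites were not searched, and a part of any site in the differences was not tested. For Fcrls and Siglech the start in the promoter table lies inside the gene's own span, so that 241 and 30 of the 250 bases fall within it, and Sall1 has 3 starts in the table, 2 of them inside its span.

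The genes in the Med12l span went in different directions, and those without a place in the gene lists were named after their values were seen. Med12l was at 2.47, 2.78, 2.59 and 2.70 in the controls and at 1.95, 1.95, 1.98 and 1.90 after contusion. It fell by 0.69 (SE 0.08; limma, adjusted p = 0.000370), and all 4 of its probes were called lower. P2ry14, a receptor for UDP-glucose, rose by 0.65 ± 0.09 (limma, adjusted p = 0.000761), and Gpr171, another G protein-coupled receptor, rose by 1.34 ± 0.24 (adjusted p = 0.00316). Of 10 circRNAs placed in Med12l, 8 were lower and 0 higher (25.7% of all circRNAs tested were lower), with a median of -0.54. One of them, at chr3:59261874-59265284, spans the start of P2ry12 and was lower by -0.61 ± 0.11 (limma, adjusted p = 0.00291). The names of these circRNAs give the plus strand. The build of their positions is not given in the sources used here; 97.8% of 35615 circRNAs lay within one protein-coding gene of GRCm38.p6 as listed, and 44.9% when moved by 200000 bases. Cask, around Gpr34, differed by -0.13 ± 0.07 (adjusted p = 0.215). No circRNA lay wholly inside any of the 9 members.

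**Figure D4:**
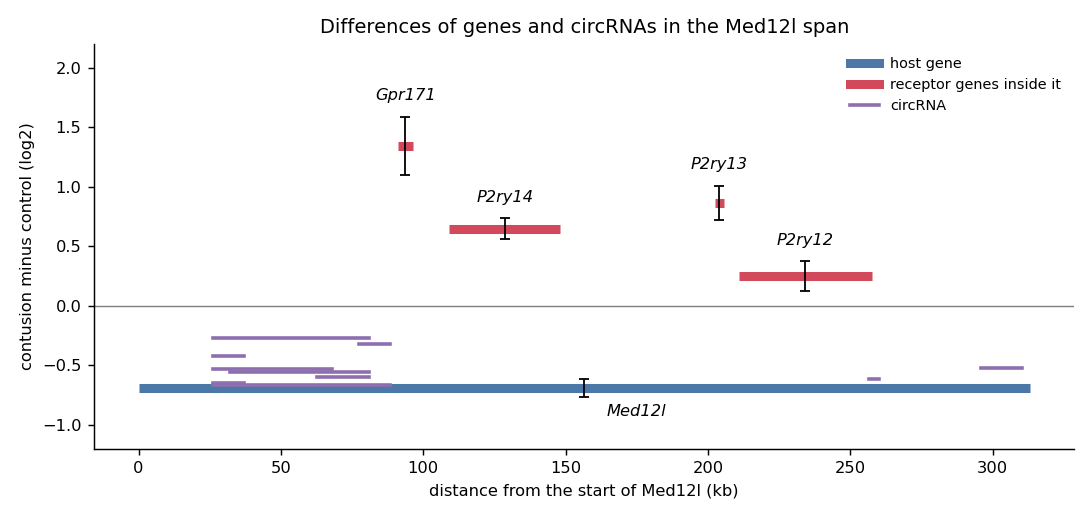
Contusion minus control difference, in log2 units, of Med12l, of 4 receptor genes in its span and of the 10 circRNAs placed there, against the distance in kb from the start of Med12l. Bars span each gene or circRNA, black error bars are SEs from limma, P2ry13 (0.87), P2ry14 (0.65) and Gpr171 (1.34) lie well above 0, P2ry12 (0.25) lies near it, and Med12l (-0.69) lies below.

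The nearest patterns over the 8 arrays are given for 3 members, as a description in which the 2 groups are part of the pattern. P2ry12 was most like Apcdd1 (Pearson r = 0.97), Lpar4 (0.96) and Vmn1r212 (0.95). Tmem119 was most like Cd101 (0.997), F11r (0.996) and Ifngr1 (0.995). Sall1 was most like Dyrk2 (0.98), Slc16a4 (0.97) and Morc4 (0.97). None of these genes is among the 9.

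Other genes of the resting programme were higher or did not pass, as was so for the members. Of 21 further homeostatic genes 11 were higher, 0 lower and 10 did not pass, with a median of 0.46. Among all mRNAs tested, 25.8% were higher and 25.3% lower. The genes named next were all called, so they do not stand for the 10 that did not pass. Cx3cr1, the fractalkine receptor, rose by 1.17 ± 0.15 (limma, adjusted p = 0.000561). Golm1 rose by 1.66 and Pros1, a ligand of phagocytic receptors, by 1.48.

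Of 13 microglial transcription factors, 6 were higher and 0 lower, with a median of 0.37. They included Irf8 (1.70 ± 0.26) and Cebpa (1.54 ± 0.16), which act in myeloid cells. Of 13 TGF-beta signalling genes, 7 were higher and 1 lower, with a median of 0.39. Nrros, which holds latent TGF-beta on microglia, rose by 2.01 ± 0.14, the integrin subunit Itgav by 0.83 ± 0.07 and Tgif1, a repressor of SMAD targets, by 1.77 ± 0.15. Of 13 purine signalling genes 9 were higher and 1 lower, with a median of 0.57, among them the integrin Itgb1 (0.96 ± 0.09) and the G protein subunit Gnai2 (0.57 ± 0.08), which acts below P2ry12.

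Of 20 genes of activated microglia and phagocytes 19 were higher and 0 lower, with a median of 1.78 against 0.87 for the 9 markers. Ctsl, a lysosomal protease, rose by 1.47 ± 0.10, Lpl by 1.98 ± 0.15 and Cd63 by 1.26 ± 0.10. Of 12 cell division genes 11 were higher, with a median of 3.19, and those with the smallest adjusted p were Mcm2 (2.00 ± 0.07), Mcm5 (2.78 ± 0.18) and Birc5 (3.19 ± 0.24). The lists share some genes with each other and were drawn up with earlier results of these data known, so their counts are descriptions.

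**Figure D5:**
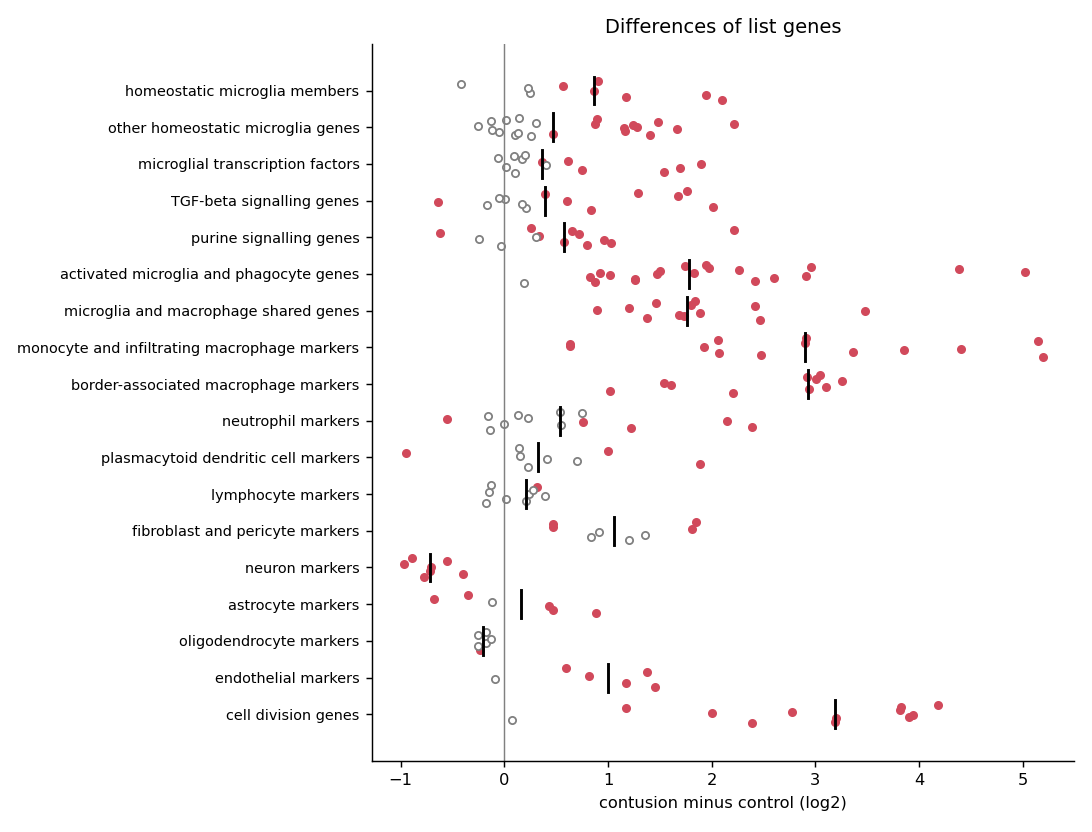
Contusion minus control difference, in log2 units, of each gene in the marker, pathway and cell type lists, filled where the gene passed the test and open where it did not, with the list's median as a black line. The medians run from -0.72 for neuron markers to 3.19 for cell division genes, with 0.87 for the 9 homeostatic markers.

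Markers of other cells that carry some of the same genes moved with the groups. All 12 genes shared by microglia and macrophages were higher, with a median of 1.76. Their mean level was 2.89 to 4.26 in the controls and 5.51 to 5.78 after contusion. All 13 monocyte and infiltrating macrophage markers were higher, with a median of 2.90 and mean levels of -0.24 to 1.70 in the controls and 3.58 to 3.86 after contusion. All 10 markers of border-associated macrophages were higher, with a median of 2.93 and mean levels of -0.70 to 0.42 against 2.18 to 2.47. In the shared list and the monocyte list control replicate 4 was the lowest control, as it was for the members. The same held for the mean levels of the cell division, astrocyte and activated phagocyte lists. It also held for the further homeostatic, transcription factor, TGF-beta and purine lists. In the border-associated macrophage, neutrophil, plasmacytoid dendritic cell, lymphocyte, fibroblast and endothelial lists control replicate 2 was lowest instead. Control replicate 1 was lowest in the neuron and oligodendrocyte lists. The low place of control replicate 4 was thus not shared by all myeloid lists, and the astrocyte list had it too. The part of these cells in the values of Selplg, Fcrls, Olfml3 and the other members was not tested.

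For Siglech, the list of plasmacytoid dendritic cell markers is relevant: 2 of 8 were higher and 1 lower, with mean levels of -1.25 to -0.57 in the controls and -0.57 to -0.39 after contusion. The other 5 did not pass, and the median of this list was 0.32 over all samples but 0.43 and 0.01 within the slides. For Selplg, which leukocytes carry, 4 of 13 neutrophil markers were higher and 1 lower, and 1 of 9 lymphocyte markers was higher. Over all mRNAs tested, 25.8% were higher and 25.3% lower. The neutrophil count fell from 5 to 2 without contusion replicate 3 or 4 and to 3 without control replicate 2 or 4, and the lymphocyte count to 0 without control replicate 2 or 4 or without contusion replicate 3 or 4. With the slide as a block the counts were 2 and 0, and the median of the neutrophil markers was 0.54 over all samples but -0.22 and -0.13 within the slides. Every marker of these lists was well above background on some arrays, and 1 monocyte marker, 2 neutrophil markers and 2 lymphocyte markers were not so on all arrays. Of the resident cells, 7 of 7 neuron markers were lower, with a median of -0.72, 3 of 6 astrocyte markers were higher and 2 lower, 1 of 6 oligodendrocyte markers was lower (0 without control replicate 2 or 4 or contusion replicate 1 or 3 and with the slide as a block, 3 with quantile normalization), and 5 of 6 endothelial markers were higher. Of 8 fibroblast and pericyte markers 4 were higher, and 8 without control replicate 3. The part of these cells in the members' values was not tested.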

How the data were processed

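Total RNA from 8 cords was measured on 1-colour Agilent arrays. The authors deposited scanner intensities, which Feature Extraction 12.0.3.1 had background-corrected and detrended, per the file headers. The submitters' processing notes give version 10.7, and limma. The deposited series table holds log2 values, and the deposited flags (background, saturation) are other values. From these, log2 processed intensity minus the 75th percentile of each array was computed, a probe had to be flagged as well above background on 4 or more of the 8 arrays, and each gene took its probe of highest mean level. limma 3.58.1 in R 4.3.3 compared the groups, with a Benjamini-Hochberg adjusted p under 0.05 as a call. RefSeq names matched for 22483 of 22694 accessions. Intervals are 95% and come from the fit, whose precision is limited by 4 arrays per group. Differences within an array were tested with exact permutation tests.

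The 9 members, the gene lists and the motifs were chosen with earlier results of these data known. Genes outside the members were named by rule: Aif1, Csf1r and Cx3cr1, up to 3 called genes with the smallest adjusted p in each pathway list, and the 3 mRNAs most correlated with P2ry12, Tmem119 or Sall1. The alternatives were other background corrections, scalings and filters, the mean of a gene's probes, adjustment over mRNAs alone, slide and replicate blocks, and leaving out samples. Some genes that this rule names are not reported here. One sample came from each mouse, per the design text.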

Additional observations from a re-analysis of the deposited data

Results flagged for a closer look

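In 1 of 36 groups of 4 samples (the 18 member probes in each condition) the lowest or highest sample stood apart by more than Dixon's critical value at the 95% level. At the Olfml3 probe that stood for the gene, contusion replicate 1 had a level of 6.58, the nearest sample 6.69 and the highest 6.71, so its gap was 0.832 of the range. Chance flags about 1 in 20 groups. Olfml3 was above every control in this sample too.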

How the results depend on the processing

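The 6 calls became 5 to 7 when 1 sample was left out, and the 13 called probes 11 to 13. All mRNA calls, 9306, ranged from 7926 to 9609. Called list genes, 130, ranged from 120 to 135. Across 19 alternatives no member changed sign, and Fcrls, Olfml3, Gpr34, Tmem119 and P2ry13 passed in each, at 1.72 to 2.60, 1.69 to 2.36, 0.96 to 1.44, 0.74 to 1.07 and 0.80 to 0.99. P2ry12 and Siglech passed in none, with adjusted p of 0.0667 to 0.345 and 0.0586 to 0.516 and differences of 0.17 to 0.37 and -0.55 to -0.21. Sall1 ranged from 0.13 to 0.28. Selplg, at 0.39 to 0.79, lost its call in 7 of 19, among them no filter on dim probes (adjusted p = 0.0574), besides those given above. Under the other background corrections and scalings the median of all mRNAs lay between -0.0208 and 0.0005 log2 units, against -0.0014 in the main fit.

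Samples of different groups share replicate numbers, and the deviations of such samples from their group means correlated at -0.24 to 0.06. These values show no sign of pairing by number, but they cannot settle whether the samples were paired. With the replicate as a block 7460 mRNAs and 5 members were called, the call of Selplg was lost (adjusted p = 0.0743), and 3 neutrophil, 0 lymphocyte and 0 oligodendrocyte markers were called. With control replicates 1 and 3 both left out, chosen after seeing the data, 6 members were called. The pairs of members that differed stayed at 28 under 4 other scalings, and the comparisons with Aif1 and Csf1r gave 14 to 16 of 18. Each group has 4 arrays, which limits the precision.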
